A study of Mus musculus with 2148 samples.

Results

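The genes described here are those of the cornified envelope, taken from single thymic epithelial cells of C57BL/6 mice. They were chosen by symbol alone: every gene whose symbol starts with Sprr or Lce, and 13 single genes (Ivl, Lor, Flg, Flg2, Hrnr, Rptn, Tchh, Tchhl1, Crnn, Sbsn, Dmkn, Krtdap and Spink5). The rule gave 51 genes of the 48437 in the count table, 17 Sprr and 21 Lce genes among them, and together they held 0.0492% of all reads. On GRCm38, 47 of the 51 lay on chromosome 3 between positions 92080271 and 93471980. Sbsn, Dmkn and Krtdap lay side by side on chromosome 7, and Spink5 lay on chromosome 18.

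The cornified envelope is the cross-linked protein shell that replaces the plasma membrane of a dying keratinocyte at the skin surface. Transglutaminases join involucrin (Ivl), loricrin (Lor), the small proline-rich proteins (Sprr) and the late cornified envelope proteins (Lce) into that shell, while filaggrin (Flg) and its relatives bundle keratin and hold water beneath it. Most of these genes sit in 1 block of the genome, the epidermal differentiation complex, and in the thymus medullary epithelial cells transcribe them among the many tissue-restricted genes that are shown to developing T cells, some of which need the transcriptional regulator Aire.

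Each library was 1 cell, read by RamDA-seq, which copies total RNA over its full length. The 1980 cells had been sorted as cortical cells (cTEC) or as medullary cells with high or low MHC class II (mTEChi and mTEClo), and they formed 8 groups. The 620 adult WT mTEChi came in 4 pools of 444, 12, 82 and 82 cells from mice of 4, 5, 6 and 4 weeks, the last one female and the others male. The 357 adult WT mTEClo came in 3 pools of 217, 74 and 66 cells from male mice of 8, 5 and 4 weeks, and the 77 adult WT cTEC came from male mice of 6 weeks. Adult Aire-KO mice, male and 5 weeks old, gave 338 mTEChi and 154 mTEClo in 1 pool each. Newborn WT mice of 1 day and unrecorded sex gave 171 mTEChi, 124 mTEClo and 139 cTEC in 1 pool each. A pool is the cells of a group with the same age and sex labels, and since the labels number no mice it may hold several. The p-values below thus measure the spread between pools, except where batches are named as the units.

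Cells held 203010 to 1823784 reads, with a median of 692880. Levels are given as counts per 1000000 reads (CPM) over the summed cells of a pool, and detection as the share of cells with at least 1 read after each cell was thinned to 200000 reads. Aire stood at 1110, 1845, 1125 and 1790 CPM in the 4 adult WT mTEChi pools, 1469 CPM in newborn mTEChi and 26.1 CPM in Aire-KO mTEChi, so the groups matched their genotype labels. Psmb11, a proteasome subunit of cortical cells, stood at 732 and 916 CPM in the adult and newborn cTEC and at 0.667 to 284 CPM in the mTEC pools, the highest in newborn mTEClo. WT mTEChi pool 2, with only 12 cells, also held the most Rag1 (59.3 CPM) and Cd3e (23.9 CPM) of the mTEChi pools, both genes of thymocytes. Summed over 11 thymocyte markers the WT mTEChi pools ran from 53.9 to 198 CPM with 63.7 in Aire-KO mTEChi, over 8 B and dendritic cell markers from 52.2 to 95.1 with 40.5, and over 8 stromal and endothelial markers from 27.5 to 329 with 147. The part of such cells in the values below was not tested, and its values are given beside those of the other pools.

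Promoters are shown for 5 genes whose patterns are contrasted below: Sprr1a, Sprr1b and Sprr2i as Sprr genes, Rptn, the member most often detected, and Lce3b as an Lce gene. They are the 200 bases before the RefSeq start (GRCm38.p6), written 5′ to 3′ on the gene's strand. Capitals mark the letters TGANTCA, bound by the AP-1 factors that drive keratinocyte differentiation genes, and TATAAA, read on both strands. The regions are chr3:92485882-92486081 (Sprr1a, minus strand), chr3:92438780-92438979 (Sprr1b, minus), chr3:92407791-92407990 (Sprr2i, plus), chr3:93393499-93393698 (Rptn, plus) and chr3:92932779-92932978 (Lce3b, plus).
Sprr1a: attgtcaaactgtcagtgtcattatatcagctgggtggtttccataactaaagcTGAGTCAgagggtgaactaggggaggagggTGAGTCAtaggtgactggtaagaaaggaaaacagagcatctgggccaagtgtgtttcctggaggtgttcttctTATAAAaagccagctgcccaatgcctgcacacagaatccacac
Sprr1b: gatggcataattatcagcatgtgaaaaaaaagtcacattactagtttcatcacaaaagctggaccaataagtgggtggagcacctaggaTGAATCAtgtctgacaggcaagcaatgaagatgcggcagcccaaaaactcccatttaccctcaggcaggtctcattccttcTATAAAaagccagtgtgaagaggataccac
Sprr2i: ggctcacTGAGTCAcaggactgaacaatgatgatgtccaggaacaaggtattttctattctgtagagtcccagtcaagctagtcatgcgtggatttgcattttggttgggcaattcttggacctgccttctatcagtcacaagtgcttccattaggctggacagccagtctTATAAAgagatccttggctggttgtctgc
Rptn: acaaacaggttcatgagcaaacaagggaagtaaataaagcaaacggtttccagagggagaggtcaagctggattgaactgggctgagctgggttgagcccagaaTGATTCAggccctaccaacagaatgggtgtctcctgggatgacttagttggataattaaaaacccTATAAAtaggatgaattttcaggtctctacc
Lce3b: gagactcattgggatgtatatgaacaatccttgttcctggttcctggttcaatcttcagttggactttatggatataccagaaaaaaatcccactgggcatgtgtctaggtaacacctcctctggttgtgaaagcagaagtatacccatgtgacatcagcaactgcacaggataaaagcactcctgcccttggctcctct

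Sprr1a held the AP-1 letters at both 146 and 116 bases before the start, Sprr1b once at 111, Sprr2i once at 193 and Rptn once at 96, each with TATAAA closer to the start, whereas Lce3b held neither. Counted over windows of 300 bases (250 before the start and 50 after it) for the 46 genes with a RefSeq entry off chromosome 18, the AP-1 letters stood in 43.8% of 48 windows, against 7.81% of all 32817 promoter windows. They stood in those of 19 genes, 9 of them Sprr genes, and in none of the 20 Lce windows. The windows are not independent. Dmkn was counted with overlapping windows, and the Sprr2 genes with the letters held them at nearly the same distance from the start. TATAAA stood in 43.8% of the windows against 13.6% of all. The letters CCACCC, the core of KLF sites, stood in 27.1% against 31.5%, and AACCNGTT, bound by grainyhead-like factors, in 2.08% (Rptn alone) against 2.08%. For 43 entries the RefSeq start lay within 25 bases of the GENCODE gene start, and 44.2% of those held the AP-1 letters. A match is a string of letters and was not tested for binding.

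In adult WT mTEChi the family was led by a few genes. Per kilobase of exon, the mean over the 4 pools was highest for Sprr1a (112 CPM per kb), a small proline-rich cross-bridge of the envelope. It was followed by Rptn (46.8), Spink5 (22.4), Tchh (21.0) and Dmkn (18.5). The place of Spink5 depends on pool 2, of 12 cells, where it stood at 218 CPM against 55.3 to 78.7 CPM in the others. All members together made up 691.7, 605.5, 875.9 and 744.4 CPM in the 4 pools, 726.0 in newborn mTEChi and 530.6 in Aire-KO mTEChi. They made up 261.3, 310.2 and 378.6 CPM in adult WT mTEClo, 279 in newborn mTEClo and 116 in Aire-KO mTEClo. The cTEC had 235 CPM in adults and 157 in newborns, so the mTEChi pools lay above every mTEClo and cTEC pool. In a sum over cells, fewer cells with a transcript and less RNA per cell cannot be told apart, which is why shares of cells are given as well.

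**Figure D1:**
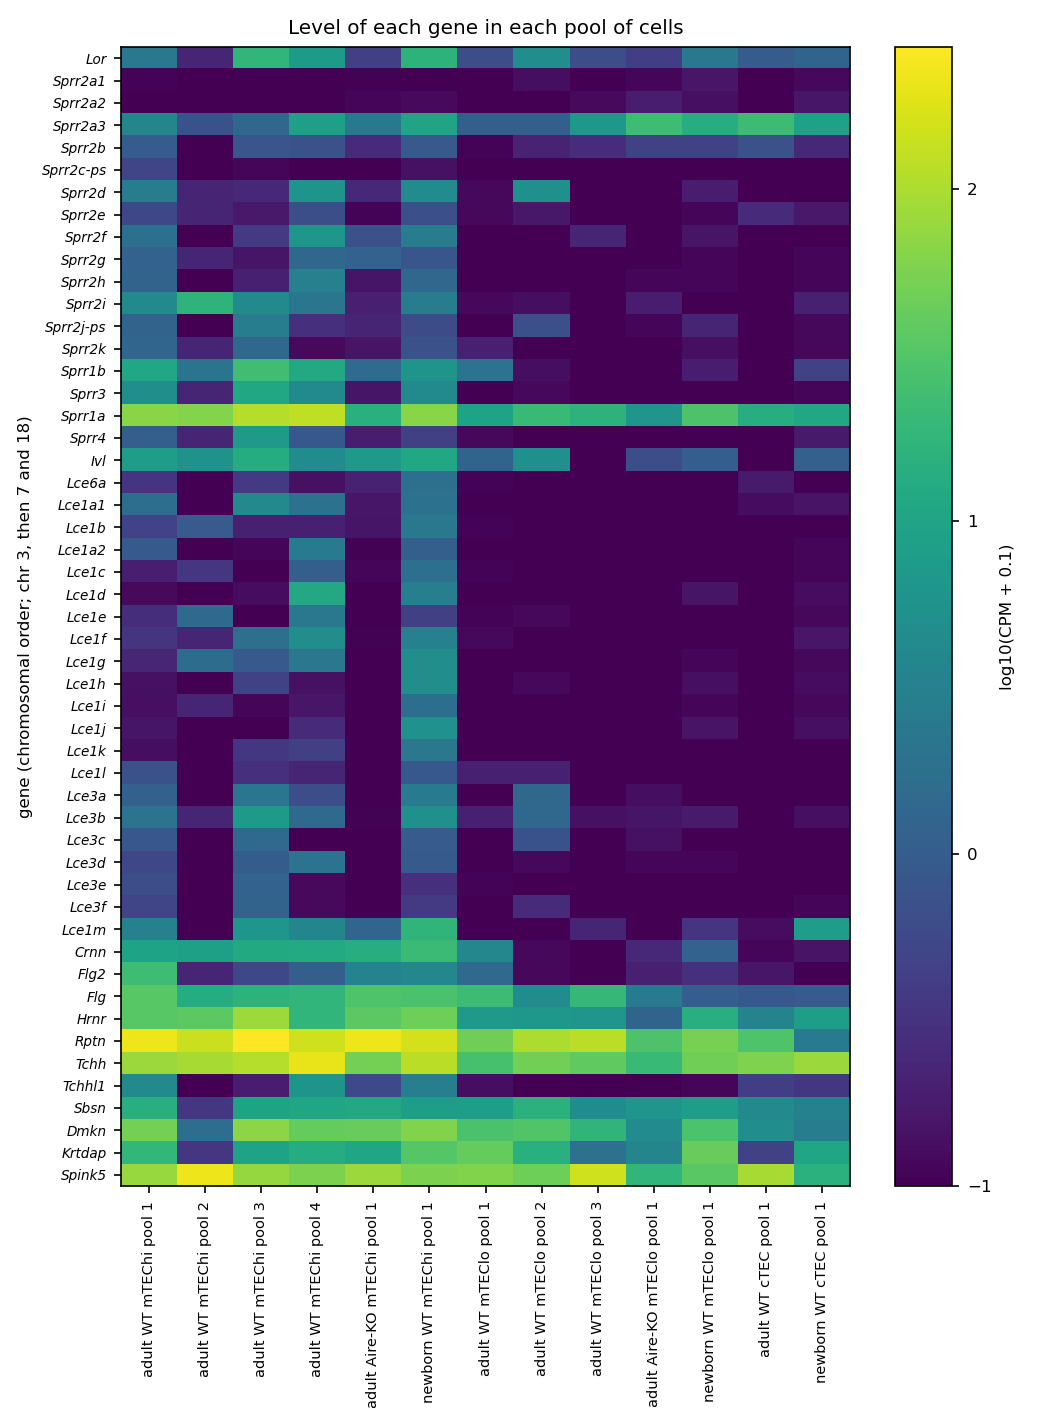
Level of each of the 51 genes (rows, in chromosomal order, with chromosomes 7 and 18 last) in each of the 13 pools (columns), as log10(CPM + 0.1). Rptn, Tchh and Spink5 were at 51.6 CPM or more in all mTEChi pools, Sprr1a was at 61.9 CPM or more in the WT ones and 14.7 CPM in the Aire-KO one, and most Lce genes were near 0 in mTEClo, cTEC and Aire-KO mTEChi.

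The proteins built like a fusion of an S100 calcium-binding head and a long repeat tail (Flg, Flg2, Hrnr, Rptn, Tchh, Tchhl1, Crnn) supplied the most reads of any family in each WT mTEChi pool. Repetin (Rptn), a matrix protein of the envelope, stood at 218, 139.9, 266 and 151 CPM in the adult WT mTEChi pools. It stood at 219.9 CPM in Aire-KO and 159 in newborn mTEChi, within the range of the WT pools. In mTEClo it stood at 48.6, 100.3 and 118 CPM in the WT pools, 29.7 in Aire-KO and 52.0 in newborns, and in cTEC at 30.5 and 2.46 CPM. Rptn shares exon sequence with Gm37857 on the same strand, which makes its count uncertain. Gm37245, a lincRNA on the other strand, spans Hrnr, Rptn and Tchh without sharing an exon with them, and strand was not used in counting. It had a read in 3.55% of WT mTEChi, and in the cells without one the shares with Hrnr, Rptn and Tchh were 46.5%, 68.6% and 52.5%, close to the shares over all cells.

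Trichohyalin (Tchh), which hardens the inner root sheath of hair, stood at 80.8, 94.4, 111 and 203 CPM in the WT mTEChi pools, 51.6 in Aire-KO and 119 in newborn mTEChi. It was the member most often seen outside mTEChi: 84.4% of adult and 70.5% of newborn cTEC and 78.2% of newborn mTEClo held a read, against 53.4% of adult WT mTEChi. Its Aire-KO mTEChi level lay below all 4 WT pools. Hornerin (Hrnr) stood at 34.1, 36.5, 85.0 and 18.1 CPM in WT, 36.5 in Aire-KO and 47.1 in newborn mTEChi. Filaggrin (Flg), the keratin bundler, stood at 34.7, 13.1, 16.2 and 18.1 CPM in WT, 30.7 in Aire-KO and 27.6 in newborn mTEChi. For both, the Aire-KO and newborn mTEChi levels were between the lowest and highest WT pool. Cornulin (Crnn), a protein of squamous epithelia, stood at 9.76, 8.64, 11.9 and 12.18 CPM in WT and at 13.3 in Aire-KO mTEChi, above all 4. Flg2 was at 22.9 CPM in WT pool 1 and 0.125, 0.460 and 0.989 CPM in the others, with 3.28 CPM in Aire-KO and 3.75 in newborn mTEChi. Most of the Flg2 reads thus came from 1 pool. Tchhl1 reached at most 5.81 CPM in any pool.

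Among the Sprr genes, Sprr1a stood at 65.6, 61.9, 109.8 and 125 CPM in the WT mTEChi pools, 65.7 in newborn and 14.7 in Aire-KO mTEChi. Sprr1b stood at 11.0, 2.00, 23.9 and 12.02 CPM in WT, 5.76 in newborn and 1.49 in Aire-KO mTEChi. Sprr3 stood at 5.05, 0.125, 10.8 and 4.10 CPM in WT, 4.30 in newborn and 0.0546 in Aire-KO mTEChi. These genes shared 1 order, with the Aire-KO pool below every WT pool and the newborn pool within the WT range. Sprr2i followed it at 4.07, 16.9, 4.31 and 2.14 CPM in WT, 2.77 in newborn and 0.0990 in Aire-KO mTEChi, and Sprr4 at 0.984, 0.125, 7.10 and 0.783 CPM against 0.341 and 0.0853. For Sprr3 and Sprr4 the lowest WT value, 0.125 CPM in pool 2, came from 1 of its 12 cells, so their place below that pool is weak.

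Sprr2a3 had another distribution. It stood at 3.54, 0.626, 1.34 and 8.78 CPM in WT mTEChi and 2.31 in Aire-KO mTEChi, but at 0.995, 1.00 and 6.52 CPM in WT mTEClo and 23.1 CPM in Aire-KO mTEClo, with 22.3 CPM in adult cTEC. The shares of cells ran the same way, with 11.6% of adult WT mTEChi, 4.76% of adult WT mTEClo, 25.3% of Aire-KO mTEClo and 23.4% of adult cTEC. Both Aire-KO mTEClo batches were high, at 31.5% and 19.8% of cells. Newborn WT cells held it as well, at 10.0 CPM in mTEChi (21.6% of cells), 13.6 in mTEClo (20.2%) and 8.98 in cTEC (14.4%). Psmb11 stood at 71.6 CPM in Aire-KO mTEClo and at 14.1, 0.667 and 5.52 CPM in the adult WT mTEClo pools. The part of cortical cells in the Sprr2a3 values was not tested. The exons of Sprr2a1 and Sprr2a2 overlap, both had almost no reads and neither passed the low-count filter, and reads of these near-identical copies may have been lost or split.

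The Lce genes, which encode small cysteine- and glycine-rich envelope proteins, were rare and uneven. The summed Lce1 genes stood at 7.36, 4.26, 13.8 and 30.5 CPM in the WT mTEChi pools, 49.7 in newborn and 1.34 in Aire-KO mTEChi. The summed Lce3 genes stood at 5.08, 0.125, 13.9 and 3.90 CPM in WT, 9.87 in newborn and 0.00341 in Aire-KO mTEChi, the last from 1 read. No mTEClo pool had more than 0.387 CPM of Lce1 genes, and Lce3 genes reached 3.39 CPM in 1 of the 3 WT mTEClo pools. Single pools carried some of these genes, as Lce1d was at 11.6 CPM in WT pool 4 and at most 0.0287 CPM in the other WT mTEChi pools. Lce1m, the commonest Lce gene, stood at 3.07, 0, 6.26 and 3.67 CPM in WT, 1.202 in Aire-KO and 17.1 in newborn mTEChi, and at 8.01 CPM in newborn cTEC. The newborn values were uneven over the 5 batches, with a median of 0.834 and a highest of 49.3 CPM in mTEChi, and 0.0936 and 39.9 CPM in cTEC.

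Loricrin (Lor) and involucrin (Ivl), the classical envelope proteins, were low here. Ivl stood at 7.95, 5.51, 13.0 and 4.49 CPM in WT, 7.05 in Aire-KO and 10.8 in newborn mTEChi. Lor stood at 2.23, 0.125, 17.8 and 7.15 CPM in WT, 0.348 in Aire-KO and 16.3 in newborn mTEChi. Both overlapped widely between pools, and only Lor was at a lower CPM in Aire-KO than in 3 of the 4 WT pools. Of the secreted products of upper epidermal layers, Dmkn stood at 51.3, 1.63, 68.6 and 40.7 CPM in WT, 42.1 in Aire-KO and 60.4 in newborn mTEChi. Krtdap stood at 18.7, 0.250, 9.68 and 13.0 CPM in WT mTEChi but 41.6, 14.9 and 1.77 CPM in WT mTEClo and 42.5 in newborn mTEClo, so that the mTEChi and mTEClo pools overlapped. Sbsn stood at 14.6, 0.250, 9.70 and 10.1 CPM in WT and 11.4 in Aire-KO mTEChi, and its share of cells was nearly level over the 8 groups, from 34.7% to 40.9%. Its exons overlap those of Tmem147os, which had a read in 49.8% to 64.9% of cells per group, and the part of that gene in the Sbsn counts was not tested. Spink5, whose product LEKTI inhibits the proteases that shed the skin surface, stood at 78.7, 218, 75.8 and 55.3 CPM in WT, 81.4 in Aire-KO and 55.6 in newborn mTEChi.

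The Sprr and Lce genes not given so far reached at most 7.27 CPM in any pool (Lce3b), and Sprr2f and Sprr2d followed with 6.49 and 5.87 CPM. Members with no read in any cell numbered 1 in adult WT mTEChi and 1 in newborn mTEChi, against 14 in Aire-KO mTEChi, 10 in WT mTEClo, 27 in Aire-KO mTEClo and 32 in adult cTEC. These groups differ in their number of cells, so the counts are set side by side only.

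The question of whether MHC class II-high cells express the envelope genes more than MHC class II-low cells was asked in adult WT mice, 4 pools against 3. Sprr1a was 5.59-fold higher in the summed mTEChi (log2 fold change 2.39 ± 0.37, SE, adjusted p = 0.00805), Hrnr 6.08-fold (2.54 ± 0.52, adjusted p = 0.0201) and Tchh 2.74-fold (1.50 ± 0.36, adjusted p = 0.0346), by edgeR's quasi-likelihood test over 39971 genes. In all 3, every mTEChi pool lay above every mTEClo pool: Sprr1a at 9.57, 20.4 and 16.2 CPM, Hrnr at 6.78, 6.64 and 5.97 CPM and Tchh at 26.8, 50.0 and 38.8 CPM in the mTEClo pools. Sprr2i (log2 fold change 8.27 ± 1.28, adjusted p = 0.00816) had 1971 reads in mTEChi and 4 in mTEClo, a ratio of 226 with a counting interval of 88.3 to 832. Sprr3 (9.55 ± 1.82, adjusted p = 0.0158) had 2724 reads against 1, a ratio of 1251 with a counting interval of 224 to 49443. By share of cells, Sprr1a (53.5% against 23.0%) and Hrnr (47.3% against 15.1%) were commoner in mTEChi than in mTEClo. Tchh was not, at 53.4% of mTEChi and 58.8% of mTEClo cells. Its median among cells with a read was 17.5 CPM in mTEChi and 22.4 CPM in mTEClo. In mTEChi, 10 cells held 51.4% of the Tchh reads, 87.8% of the Sprr2i reads and 77.1% of the Sprr3 reads.

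In all, 12 of the 49 members that passed the low-count filter were called higher in mTEChi and 0 lower, against 7.54% of all genes higher and 4.13% lower. The other 7 were Sprr4, Sprr2g, Lce1a1, Lce1b, Lce1f, Lce1g and Lce3d, all with 0 to 2 reads in the mTEClo of all 3 pools. Lce1a1 was at least 145-fold higher, Sprr2g at least 69.1-fold and Lce1g at least 33.8-fold. The floor was 3 reads over the whole group, and it counts reads, which sat in few cells. Over all groups, 10 cells held 90.2% of the Lce1a1 reads, 97.75% of the Sprr2g reads and 97.0% of the Lce1g reads. The median log2 fold change was 3.89 over the members and 0.30 over all genes. A member that is low everywhere else passes the filter through mTEChi and could hardly be called lower. Neither these medians nor the count of 12 higher and 0 lower thus stands as support. By pool, 15 members lay in all mTEChi pools above all mTEClo pools (16.1% of all genes did) and 0 below (9.85% did). Rptn, with the most reads, had a log2 fold change of 0.96 ± 0.32 that missed the threshold (adjusted p = 0.0790). The count rests on the pools, and it was 2 without mTEClo pool 2 or without pool 3, 4 without mTEChi pool 4 and 7 without mTEChi pool 1 or without mTEClo pool 1. DESeq2 called 23 higher (17.9% of all genes higher, 7.00% lower), and edgeR over batches 26 (25.8% and 9.21%), with 0 lower by either. With age and sex as a block the count was 5 (4.50% of all genes higher, 3.01% lower). Sprr1a and Sprr2i were called under each of the 13 other settings tried.

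The genes that work with the envelope were counted the same way, against the same 7.54% of all genes called higher and 4.13% lower, and with so few calls a list the counts below are a description. Of 24 epidermal keratins and desmosome genes, the desmosomal cadherins Dsg1b (log2 fold change 2.28 ± 0.23) and Dsg1a (1.06 ± 0.22) rose in mTEChi, and the basal keratin Krt5 (-3.36 ± 0.63), Dsc3 (-2.31 ± 0.59) and Dsp (-1.41 ± 0.31) fell. Of 18 cross-linking and processing enzymes, the kallikrein Klk5 (9.06 ± 1.84), the transglutaminase Tgm5 (3.10 ± 0.58), Asprv1 (1.96 ± 0.44), a protease that processes filaggrin, and Cst6 (1.93 ± 0.34) rose, and Ctsl (-2.23 ± 0.54) fell. Of 14 barrier lipid genes, Sdr9c7 (2.03 ± 0.45) rose. Of 16 neighbours in the epidermal differentiation complex, Smcp, S100a7a, S100a3, S100a14 and S100a16 rose, by log2 fold changes from 7.13 down to 1.55, and of 21 keratinocyte transcription regulators, Grhl3 (1.82 ± 0.29) and the vitamin D receptor Vdr (1.71 ± 0.19) rose.

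Whether the envelope genes depend on Aire was asked by comparing Aire-KO with WT in each adult sort, where the Aire-KO group was 1 pool that was assumed to vary like the others. In mTEChi, edgeR over pools called 0 of the 49 members, as it called 0% of all 39971 genes. At an unadjusted p under 0.05 there were 14 members, all with lower values in Aire-KO, against 4.37% of all genes, and the median log2 fold change was -4.18 over the members and -0.16 over all genes. The filter again lets in members through the WT group, and these numbers are given as a description. DESeq2 on the same pools called 8 members lower (Sprr1a, Sprr2i, Sprr3, Lce1f, Lce1g, Lce3a, Lce3b and Lce3d) and 0 higher, against 1.79% of all genes lower and 0.130% higher. edgeR over experimental batches, which are technical units, called 7 lower (Sprr2i, Sprr3, Sprr4, Lce1l, Lce3b, Lce3d and Lce3f) and 0 higher, against 4.44% and 1.23% of all genes. The filter caveat holds for these calls too. In Aire-KO mTEChi, Lce1g, Lce1l, Lce3a, Lce3d and Lce3f had 0 reads, and Lce1f and Lce3b had 1. Members that passed the filter through WT could hardly be called higher, so these counts are a description as well.

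Sprr1a, at 14.7 CPM in Aire-KO against 61.9 to 125 in WT, had a fitted difference of -2.50 ± 0.59 on the log2 scale (SE; adjusted p = 0.925 by edgeR). The ratio of WT to Aire-KO over the summed cells was 5.30 for Sprr1a, 8.62 for Sprr1b, 21.6 for Sprr4, 41.7 for Sprr2i and 104 for Sprr3, the last from 2724 and 16 reads. For Lce3b it was 762 from 1242 reads and 1 read, with a counting interval of 136.5 to 30109. That interval counts reads, and 92.0% of the WT ones came from 10 of the 620 cells. By reads, Lce3a was at least 109-fold, Lce3c at least 73.6-fold and Lce3d at least 64.2-fold higher in WT. They had no read in 338 Aire-KO cells, which allows a share of up to 0.888% of cells. In WT they were rare too, detected after thinning in 18, 14 and 12 of the 620 cells. By contrast Rptn (log2 fold change 0.31 ± 0.45), Flg (0.70 ± 0.82), Hrnr (-0.12 ± 0.70), Crnn (0.45 ± 2.11) and Krtdap (0.09 ± 1.70) had fitted differences smaller than or close to their standard errors.

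By CPM, 12 members lay below all 4 WT pools (17.5% of all genes did) and 1, Crnn, above (16.5% did). The 12 were Sprr1a, Sprr1b, Sprr2e, Sprr2i, Sprr3, Sprr4, Lce1b, Lce1f, Lce1g, Lce1i, Lce3b and Tchh. For Sprr3, Sprr4, Lce1f and Lce3b the lowest WT value was only 0.125 CPM, in pool 2. By share of cells, 10 members lay below (16.6% of all genes) and 2 above (13.8%). These counts depend on the 12-cell WT pool 2: without it, 28 members lay below by CPM (33.2% of all genes) and 29 by share of cells (33.9%). Pool 2 was also the only WT mTEChi pool of 5 weeks, the age of the Aire-KO mice. Without it, genotype and age cannot be told apart.

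By share of cells, some members were well below their WT value in Aire-KO mTEChi and others were not. Sprr1a was detected in 53.5% of WT mTEChi (at least 50.2% in each pool) and 18.0% of Aire-KO mTEChi (95% exact interval 14.1% to 22.6%, counting error only). Sprr1b went from 13.9% to 2.66%, Sprr3 from 7.74% to 0.296%, Sprr4 from 6.77% to 0.888%, Krtdap from 20.6% to 5.03% and Spink5 from 38.1% to 19.2%. The Aire-KO shares of Sprr3 and Spink5 lay above WT pool 2, the pool of 12 cells, which had 0% and 16.7%, while those of Sprr1a, Sprr1b, Sprr4 and Krtdap lay below every WT pool. Flg was at 36.5% in WT and 37.0% in Aire-KO, Crnn at 14.0% and 14.5%, Sbsn at 35.6% and 39.1% and Lce1m at 6.13% and 7.99%. Rptn was detected in fewer Aire-KO cells (50.9% against 69.7%, with WT pools from 50.0%) although its CPM was no lower, and its median level among cells with a read was 39.1 CPM in Aire-KO and 19.3 CPM in WT. Tchh had 36.1% against 53.4% of cells, with medians of 38.8 and 17.5 CPM among cells with a read.

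**Figure D2:**
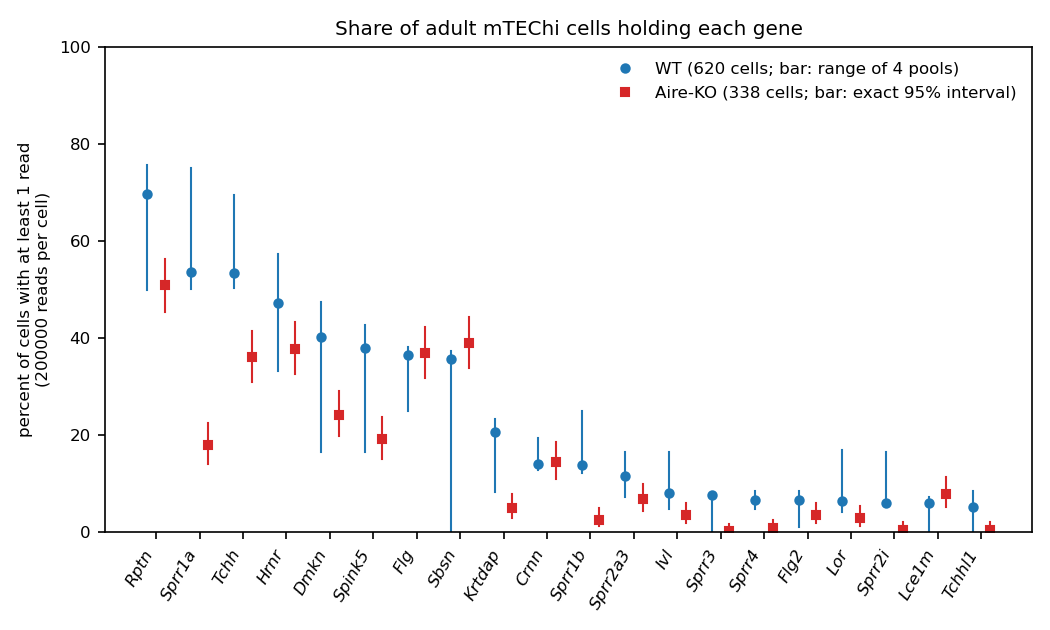
Share of adult mTEChi cells with at least 1 read of each of the 20 most often detected members, at 200000 reads per cell. WT points (circles) carry the range of the 4 pools and Aire-KO points (squares) an exact 95% interval for counting error. Sprr1a and Sprr1b lay below all WT pools in Aire-KO, while Flg, Sbsn and Crnn lay inside or next to the WT range.

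The shares were also taken per experimental batch. In the 9 WT batches 42.7% to 76.5% of cells held Sprr1a, and in the 4 Aire-KO batches 8.33% to 24.4%, with no overlap. Rptn overlapped (37.3% to 78.9% in WT, 22.6% to 66.7% in Aire-KO), as did Flg (23.5% to 49.3% and 31.0% to 46.5%), Krtdap (5.88% to 32.8% and 2.38% to 11.6%) and Sprr1b (2.82% to 29.4% and 0% to 4.94%). No batch held both genotypes, so genotype and batch cannot be told apart.

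**Figure D3:**
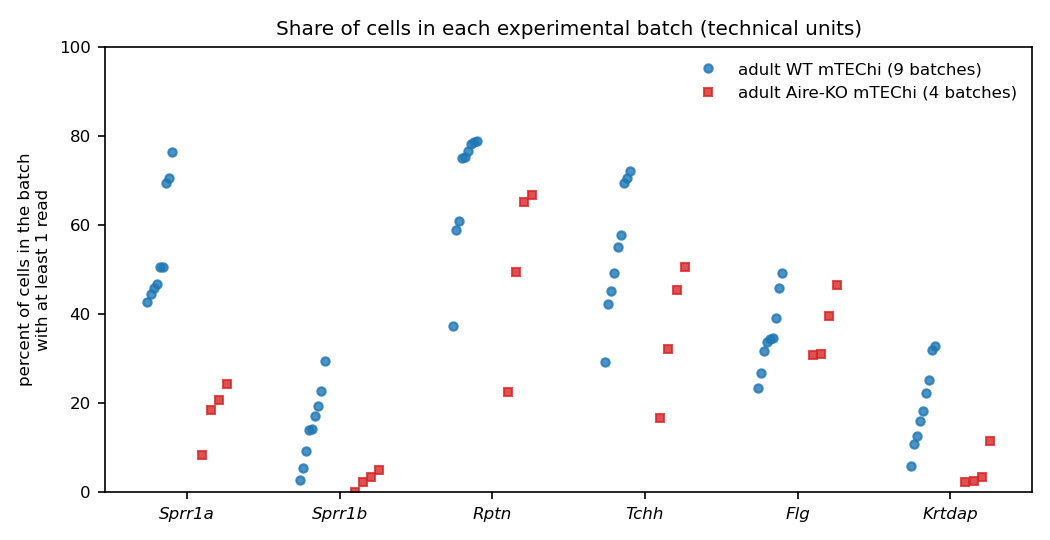
Share of adult mTEChi cells with at least 1 read of 6 members in each experimental batch, 9 WT batches (circles) and 4 Aire-KO batches (squares), sorted within each set. The 2 sets were apart for Sprr1a and overlapped for Sprr1b, Rptn, Tchh, Flg and Krtdap.

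In mTEClo, where WT cells had 26.1 to 39.5 CPM of Aire and Aire-KO cells 0.153 CPM, edgeR also called 0 of the 49 members between the genotypes (0% of all genes), with 6 members at an unadjusted p under 0.05, 5 of them lower in Aire-KO, against 3.55% of all genes. DESeq2 called Sprr2d lower (0.463% of all genes lower, 0.218% higher), a gene at 0.0178, 5.19 and 0 CPM in the WT mTEClo pools and 0 in Aire-KO, so that this call rests on WT pool 2, as does the Sprr2d call below. Over batches, edgeR called 0 members (0.0621% lower, 0.203% higher). By CPM, 8 members lay below all 3 WT pools (13.6% of all genes did), namely Spink5, Lor, Sprr1a, Flg, Hrnr, Rptn, Tchh and Dmkn, and 4 above (25.9% did), namely Sprr2a3, Sprr2b, Sprr2h and Sprr2i. Rptn had a log2 fold change of -1.53 ± 0.52, Hrnr -2.43 ± 0.85, Flg -2.58 ± 1.05 and Sprr2a3 3.09 ± 1.34, each with an edgeR adjusted p of 1.00. Rptn was detected in 8.44% of Aire-KO and 42.9% of WT mTEClo. The difference between the Aire effects of the 2 sorts, tested as an interaction, was called for 0 members by edgeR (0% of all genes), with 4 at an unadjusted p under 0.05 (3.44% of all genes), and for Rptn it was 1.84 ± 0.67 on the log2 scale. DESeq2 called 3, Sprr2i and Lce3a lower and Sprr2d higher (0.300% and 0.168% of all genes), and edgeR over batches 0 (0.203% and 0.143%). Of the 5 lists of other epidermal genes, edgeR over pools called none between genotypes in either sort. DESeq2 on the same pools called Krt1, Padi1 and Klk5 lower in Aire-KO mTEChi, and Krt78, Klk7, Asprv1, Tgm5, Lipk, Sdr9c7, S100a9 and Hopx lower in Aire-KO mTEClo. Over batches, edgeR called Padi1, Padi3, Prss8, Klk5, S100a8, S100a9, S100a10 and Hopx lower and Krt6a higher in Aire-KO mTEChi.

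Newborn and adult WT cells were compared to ask about age, against the same adult pools that served the Aire-KO comparison. In mTEChi edgeR called 0 members (0% of all genes), with 5 at an unadjusted p under 0.05 (2.01% of all genes), all higher in newborns and all Lce genes. DESeq2 also called 0 (0.0300% of all genes higher, 0.0575% lower). A member low in the adult pools can pass the filter through the newborn group, so the direction of these members is a description. By CPM, 15 members lay above all 4 adult pools (20.1% of all genes did) and 0 below (12.3% did). Of the 15, 11 were Lce genes, which make up 21 of the 51 members. Lce1j stood at 5.30 CPM in newborns and at most 0.165 in the adult pools, Lce1h at 4.88 and at most 0.359, and Lce1i at 1.62 and at most 0.125. All newborn Lce1j reads came from 10 of the 171 cells. Over the 5 newborn batches, of 32 to 40 cells, Lce1j ran from 0 to 11.3 CPM (median 6.11), Lce1h from 0 to 15.8 (0.331) and Lce1i from 0 to 4.86 (0.501). These were the 3 members that edgeR called higher over batches, where 0.913% of all genes were called higher and 0.873% lower. Their log2 fold changes were 6.56 ± 1.32, 6.28 ± 1.30 and 5.11 ± 1.31 (edgeR adjusted p = 0.0117, 0.0104 and 0.0372). Batches are technical units and all 5 newborn ones came from 1 pool, so these p-values do not measure the spread between pools. In mTEClo edgeR called 0 members (0% of all genes), with 1, Flg, at an unadjusted p under 0.05 (9.93% of all genes). DESeq2 called Flg and Lce3a lower (2.53% of all genes lower, 2.06% higher) and edgeR over batches Flg lower (8.92% lower, 7.08% higher). By CPM, 13 members lay above all 3 adult pools (34.0% of all genes did). Flg and Spink5 were the 2 members below all adult mTEClo pools (19.1% of all genes did), Flg at 0.962 CPM against 22.0, 4.45 and 19.3 (log2 fold change -4.10 ± 1.17, edgeR adjusted p = 0.306).

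The order in which members were detected was taken first over cells. In adult WT mTEChi it ran from Rptn (69.7% of cells) through Sprr1a (53.5%), Tchh (53.4%), Hrnr (47.3%), Dmkn (40.2%), Spink5 (38.1%), Flg (36.5%), Sbsn (35.6%) and Krtdap (20.6%) to Crnn (14.0%) and Sprr1b (13.9%). Neighbours such as Sprr1a and Tchh, or Flg and Sbsn, lay within each other's spread over pools. Of the first 10 genes, 9 or 10 stayed in the set when cells were not thinned, when 5 reads were asked for or when a second thinning was drawn. All Lce genes but Lce1m were found in under 4% of cells.

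**Figure D4:**
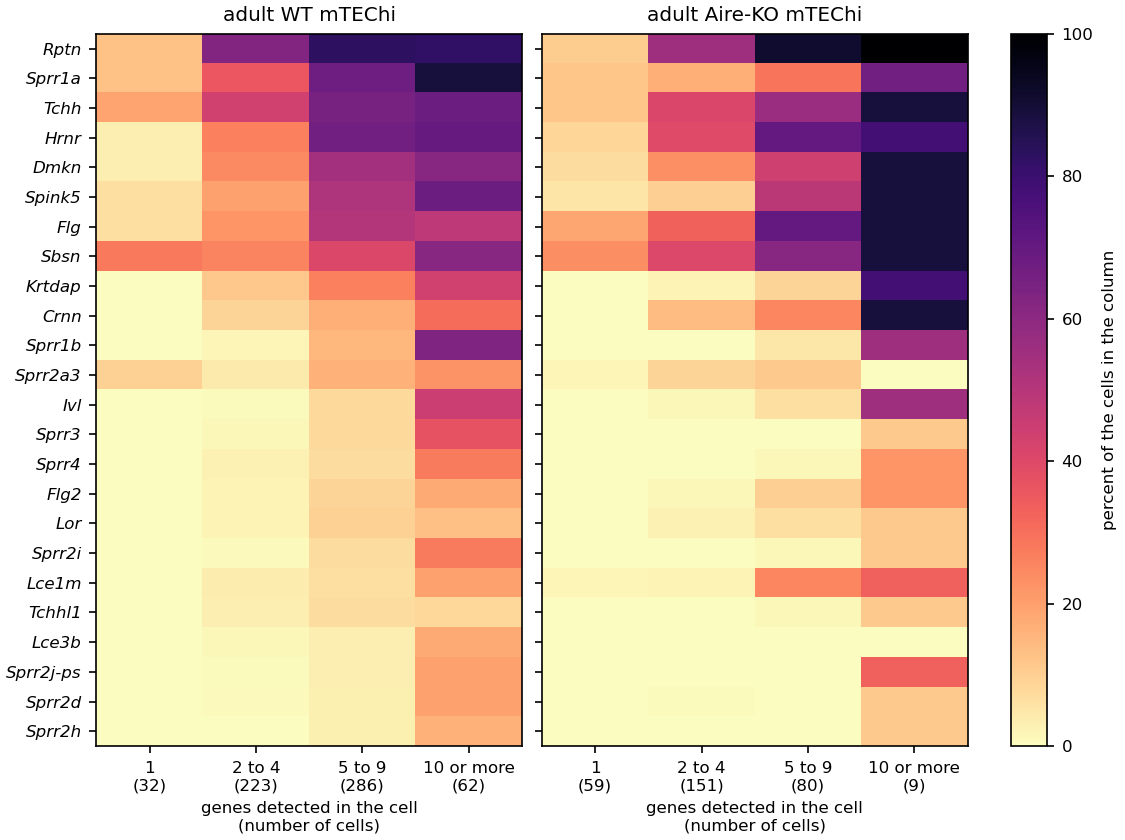
Share of cells with each member (rows, the 24 most often detected in adult WT mTEChi, in that order) in cells grouped by how many of the 51 members they held (columns, with the number of cells), for adult WT and Aire-KO mTEChi. Rptn, Sprr1a and Tchh were present in cells with few members, and Sprr1b, Ivl and Sprr3 were in 62.9%, 45.2% and 37.1% of WT cells with 10 or more members and at most 1.79% of those with 2 to 4. Each gene counts towards its own column, so a rarer gene must be commoner in the last one.

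Cells differed widely in how many members they held. A WT mTEChi cell held 5.41 members on average (median 5, means of the pools 5.37, 4.58, 5.44 and 5.71), a newborn mTEChi cell 6.63 and an Aire-KO mTEChi cell 3.18. The 9 WT batches ran from 3.52 to 6.63, the 5 newborn batches from 4.41 to 7.94 and the 4 Aire-KO batches were at 1.70, 3.09, 3.75 and 4.17, so WT and Aire-KO batches overlapped. Without the lowest Aire-KO batch the mean was 3.67. In mTEClo the mean was 3.33 in WT, 1.93 in Aire-KO and 3.16 in newborns, and in cTEC 2.34 and 2.57. Over the 620 WT mTEChi cells the number of members had a Spearman correlation of -0.224 with the read depth of the cell after thinning and -0.044 without it, and of -0.117 with Aire CPM, all weak.

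**Figure D5:**
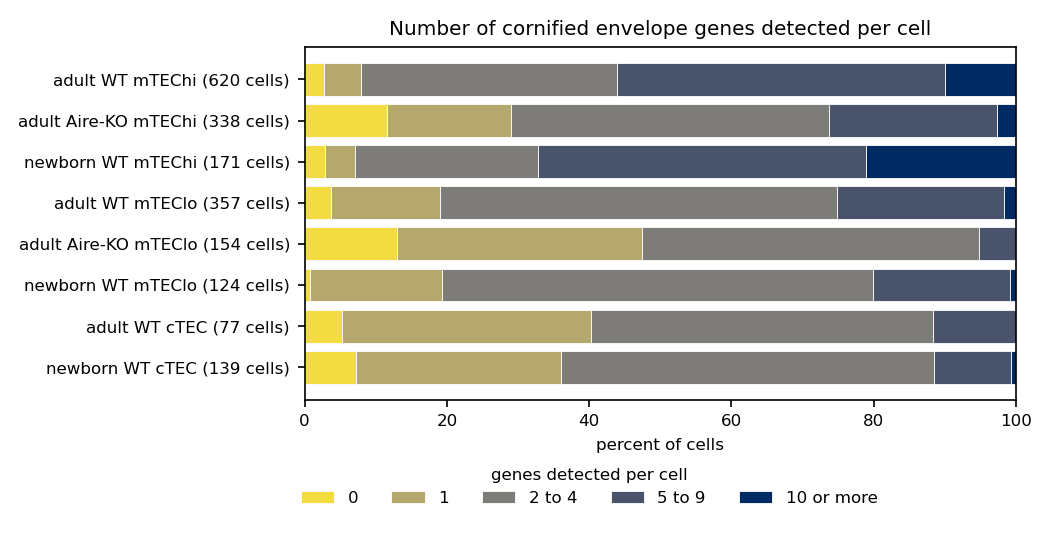
Percent of cells of each group that held 0, 1, 2 to 4, 5 to 9 or 10 or more of the 51 members at 200000 reads per cell. Cells with 10 or more made up 10.0% of adult WT mTEChi, 21.1% of newborn mTEChi and 2.66% of Aire-KO mTEChi.

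Cells with 10 or more members numbered 62 of 620 in WT mTEChi (10.0%, pools 8.33% to 11.0%), 36 of 171 in newborn mTEChi (21.1%) and 9 of 338 in Aire-KO mTEChi (2.66%, exact interval 1.22% to 4.99%). WT mTEClo had 6 such cells (1.68%), and Aire-KO mTEClo had 0 of 154. In WT these cells held 3.77 Sprr, 1.90 Lce and 3.24 of the 7 fused-type genes on average, and 59.7% of them held an Lce gene. The 9 Aire-KO cells held 2.44 Sprr, 0.778 Lce and 4.78 fused-type genes, too few cells for more than a description. Their summed keratin and desmosome genes had a median of 8604 CPM against 1610 to 1993 CPM in Aire-KO cells with fewer members, where the matching WT medians were 3189 and 1924 to 2458 CPM. Single genes of that list differed in direction between the 9 cells and the other Aire-KO cells. By median, Krt10 was at 15.2 CPM against 2.48 and Krt5 at 7.91 against 1.89, but Krt14 at 16.1 against 22.6 and Dsg1a at 137.5 against 224. Krt1 and Krt77 had medians of 0 in both sets, with Krt1 detected in 33.3% against 5.47% and Krt77 in 44.4% against 7.3% of cells. Of these cells, 0 of the 9 had an Aire read, against 50.0% to 73.5% of the others. The single richest cell was a newborn mTEChi with 29 members, 13 of them Lce genes and Lce1j the highest, and 1129 CPM of Aire. The richest adult WT cell held 21 and the richest Aire-KO cell 19, with Spink5 the highest.

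Within a cell the order was only partly kept. Had each WT mTEChi cell filled the members in the order of the group, all 3354 detections would have fallen on the commonest genes. Of them 59.1% did (58.0% in Aire-KO and 60.5% in newborn mTEChi). Genes detected independently at their own frequencies would also place many detections there, and that share was not computed. Among 253 pairs of 23 genes, the commoner gene was more frequent among cells with the rarer one than among all cells in 203 pairs (80.2%), by a median of 6.68 percentage points, and it was present in over 90% of those cells in 4 pairs. Pairs of genes share cells and are not independent. Among the highest, Rptn was in 22 of 23 cells with Sprr2j-ps, and Sprr1a was in 39 of 42 cells with Sprr4, 46 of 51 with Ivl, 43 of 48 with Sprr3 and 76 of 86 with Sprr1b. Sprr1b was in 27 of 48 cells with Sprr3, or 56.2%, against 13.9% overall. Rptn was in 37 of 41 cells with Flg2, Flg in 58.5% of those with Flg2, and Tchh in 84.4% of those with Tchhl1. Other pairs ran against the order, as Rptn was in 56.2% of cells with Sprr3 and 57.1% of those with Sprr4 against 69.7% of all cells, and Tchh in 35.7% of cells with Sprr4 against 53.4%.

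Co-detection was also set against distance along the chromosome in adult WT mTEChi. Cells with both genes as a share of cells with either had a median of 31.0% over 8 same-family pairs under 20 kb apart, 10.8% over 37 pairs at 20 to 100 kb and 6.80% over 23 pairs at 100 to 500 kb. For genes of different families it was 10.9% over 29 pairs at 20 to 100 kb, 3.92% over 149 pairs at 100 to 500 kb and 3.45% over 188 pairs beyond. Newborn mTEChi gave no such step, with 13.1% over 2 same-family pairs under 20 kb apart and 13.2% over 17 pairs at 100 to 500 kb. Among the pairs under 20 kb the highest were of Lce3 genes, namely Lce3a and Lce3c (52.4%, 11 of 21 cells), Lce3a and Lce3b (50.0%), Lce3b and Lce3c (46.2%) and Lce3c and Lce3d (36.8%), and near-identical Lce3 sequences may share reads. At 20 to 100 kb the medians within and between families were nearly equal. Such a share also depends on how common both genes are, so it is given as a description.

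Among the other genes that followed the number of members most closely over the 620 WT mTEChi cells, out of 23538 genes, were Liph (Spearman 0.375), Slc5a9 (0.338), Macc1 (0.323), Emp2 (0.317) and Serpinb2 (0.315). They were picked for this likeness, and the correlations are weak in sparse counts.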

How the data were processed

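Per the study's methods, the authors trimmed the reads with FASTX Toolkit and fastp 0.20.0, mapped them to mm10 with STAR 2.7.3a, removed poorly mapped and duplicated reads (SAMtools 1.9, Picard 2.21.1), counted reads per gene with HTSeq 0.11.2 without strand, and kept cells over 200000 reads. They deposited whole-number counts per gene and cell, which are the values used here. How the 2 runs of 168 cells were combined is not stated in the sources used here. A second table of length-scaled values was not used. The counts of each pool were summed (13 pools), and the 11 mTEC pools were tested with edgeR 4.0.16 (quasi-likelihood, TMM, R 4.3.3) after its low-count filter, which left 39971 genes and 49 members. Genes were called, by 2-sided tests, where the p adjusted by Benjamini and Hochberg was under 0.05 and the change at least 2-fold. Alternatives were DESeq2 1.42.0, RLE scaling, no filter, thinned cells, batches as units, an age-and-sex block and leaving out each pool. Positions come from GENCODE M21. The members and lists were chosen with earlier results of these data known. Members reaching a mean of 5 CPM in a group, or called, are given by pool. The lowest-share batch of Aire-KO mTEChi and WT pool 2 were left out in alternatives added after the data were seen. In simulated counts with 200 genes changed 4-fold, the test recovered 0.5% of them for Aire-KO against WT mTEChi and 2% for mTEChi against mTEClo at the measured spread, and 50.5% and 59% with the spread divided by 10, among 39971 genes. Intervals and floors cover counting error only.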

Additional observations from a re-analysis of the deposited data

Results flagged for a closer look

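In 16 members with enough reads, the adult WT mTEChi pools were searched for 1 pool lying far from the other 3, and 3 members had one. Chance gives this in about 1 of 20 such groups if the values are normally spread and equally precise. The pools held 12 to 444 cells, so that rate need not hold here. Spink5 stood at 218 CPM in pool 2, which has 12 cells, against 55.3 to 78.7 CPM in the others. Sprr2i stood at 16.9 CPM in the same pool against 2.14 to 4.31 CPM. Flg2 stood at 22.9 CPM in pool 1 against at most 0.989 CPM, and 97.3% of its reads there came from 10 of the 444 cells.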

How the results depend on the processing

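The precision is limited by the number of pools: 6 of the 8 groups have 1 pool, WT mTEChi pool 2 has 12 cells, and the simulated test recovered few 4-fold changes at the measured spread. With DESeq2 the members called numbered 8 for Aire-KO against WT mTEChi, 1 for mTEClo, 3 for their difference, 23 for mTEChi against mTEClo and 2 for newborn against adult mTEClo. With batches as units they numbered 7 for Aire-KO against WT mTEChi, 26 for mTEChi against mTEClo, 3 for newborn against adult cells in mTEChi and 1 in mTEClo. The cause of these differences was not tested. Leaving out 1 pool at a time gave 2 to 17 calls for mTEChi against mTEClo, the highest without mTEChi pool 2, 0 to 1 for newborn against adult mTEClo (1 without adult mTEClo pool 1), and 0 in both Aire-KO comparisons. No paired analysis was possible because the groups compared share no batch: the newborn sorts share batches, but they were not compared with each other. With age and sex as a block, mTEChi against mTEClo had 5 calls. The mean number of members per WT mTEChi cell was 7.58 without thinning and 4.14 at 5 or more reads, and per Aire-KO mTEChi cell 4.13 without thinning and 3.67 without batch 14. Without WT pool 2, 28 members by CPM and 29 by share of cells lay below the WT pools. Of 594 other values over all alternatives, 479 kept their direction and side of the threshold, 50 came to pass it, 55 no longer passed it, 10 moved by over 1 SD or outside the counting interval, and none changed sign.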
